A study of Drosophila melanogaster with 9 samples.

Results

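*gro* (*groucho*) encodes a corepressor, and the genes described here are *gro* and 6 partner corepressor genes, *CtBP*, *Smr*, *ebi*, *Sin3A*, *HDAC1* and *HDAC3*. They were picked by their FlyBase symbols from a table of 17481 *Drosophila melanogaster* genes. Of these 7 genes, 6 were analysed and *HDAC3* was not analysed here. All 6 averaged 0.1 FPKM or more over the 9 libraries, the filter on low values that 11493 genes passed in all.

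The libraries are RNA-seq of FACS-sorted Dl > GFP+ cells of adult midguts, in which *Dl* marks the intestinal stem cells (ISCs). There were 3 libraries of *gro-RNAi* (genotype groucho RNAi), 3 of *Notch-RNAi* (genotype notch RNAi) and 3 of control, which the labels give as Wild type and title Dl-GFP, all from flies labelled 5 to 7 days old. The driver, *Tub-Gal80ts; Dl-Gal4, UAS-GFP*, expresses GFP and the RNAi in *Dl*-positive cells once Gal80 is inactivated by warmth. The methods describe crosses at 18°C, adults of 3 to 5 days moved to 29°C for 4 days, about 200 midguts per replicate and about 30000 sorted cells for *gro-RNAi* and control. They do not describe the *Notch-RNAi* libraries in these terms, and the *gro* RNAi line used for sequencing is not named. By the methods, each replicate of *gro-RNAi* and control was a separate pool of dissected midguts. The labels number the libraries without saying that these pools came from separate crosses, or whether the *Notch-RNAi* libraries came from separate flies. The p-values measure the spread between these libraries, which for *Notch-RNAi* may be technical.

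Corepressors do not bind DNA in a sequence-specific way. They are brought to genes by repressors and in turn bring histone deacetylases and other enzymes that keep chromatin inactive. Groucho is recruited by short peptide motifs of many repressors, among them the Hairy and E(spl)-C bHLH proteins. CtBP, which has a dehydrogenase-like fold that binds NAD, is recruited by a different set that includes Snail and Krüppel. Hairless, which holds Su(H), the DNA-binding protein of the Notch pathway, in a repressive complex when Notch is off, binds both Groucho and CtBP. Sin3A is the scaffold of a complex that contains HDAC1 (also known as Rpd3), and Smr and Ebi are the fly relatives of the vertebrate SMRT/N-CoR scaffold and its TBL1 subunit, which work with HDAC3.

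Values are FPKM (mapped fragments per kilobase, scaled to the size of the library), a level that allows for transcript length. The RNA was amplified before sequencing, and whether long and short transcripts were amplified alike was not tested. Levels of different genes are therefore compared as FPKM only. Differences are log2 fold changes of FPKM + 0.1 from limma, fitted on all 11493 genes in 1 model over the 9 libraries, and a gene is called where its p, adjusted by the Benjamini-Hochberg method over all these genes, is under 0.05. Depth, read off the step that 1 read makes in low values, ran from 7720000 to 18900000 reads per library. It differed between the groups, with 7720000 to 14000000 in *gro-RNAi*, 16200000 to 18900000 in *Notch-RNAi* and 11200000 to 12600000 in control. Genes above 0 FPKM numbered 11342 to 12139, 12574 to 13086 and 11629 to 11811 in these groups. The part of depth in the differences below was not tested. The median log2 fold change of all tested genes was above 0 in both RNAi groups, 0.27 in *gro-RNAi* and 0.46 in *Notch-RNAi* against control, and was -0.18 in *gro-RNAi* against *Notch-RNAi*. Each member's difference is therefore also given relative to this median where it matters.

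The markers of the sorted cells differed between the groups. The summed FPKM of *Dl* and *spdo*, 2 of the 3 ISC markers on the list, ran from 27.4 to 74.8 in *gro-RNAi*, from 45.2 to 60.3 in *Notch-RNAi* and from 4.98 to 7.86 in control. The 4 enteroblast (EB) markers, *klu*, *Su(H)*, *E(spl)mβ-HLH* and *E(spl)mα-BFM*, summed to 1892 to 2167 FPKM in *gro-RNAi*, 219 to 376 FPKM in *Notch-RNAi* and 1253 to 1472 FPKM in control. Nearly all of this sum was *E(spl)mα-BFM* and *E(spl)mβ-HLH* (control means 829.5 and 491.6 FPKM, against 22.8 for *klu* and 3.29 for *Su(H)*). The paper reports both *E(spl)-C* genes in ISCs too, where they fell with *Notch* depletion. It also reports a set of *E(spl)-C* genes, not named singly in its text, as significantly upregulated in *gro-RNAi*. Against control, limma called none of the 4 in *gro-RNAi*, where 7.49% of all genes were called. The lowest limma unadjusted p there was 0.0132, for *E(spl)mα-BFM* (log2 fold change 0.78, limma adjusted p = 0.0991), whose *gro-RNAi* libraries were all above control. Limma called *klu* and both *E(spl)-C* genes lower in *Notch-RNAi* against control, where 28.7% of all genes were called. The 11 enteroendocrine markers summed to 2199 to 5430 FPKM in *gro-RNAi*, 3612 to 3977 FPKM in *Notch-RNAi* and 1416 to 2868 FPKM in control. This sum hides opposite changes in *Notch-RNAi* against control, where limma called *pros*, *AstC*, *CCHa1* and *Syt1* higher and the peptide genes *Tk* (mean 4.44 FPKM in *Notch-RNAi* and 101 FPKM in control), *NPF* (3.71 and 300.4 FPKM) and *Dh31* (1.52 and 22.6 FPKM) lower, while the other 4 markers were not called. In *gro-RNAi* against control limma called *pros* higher (log2 fold change 1.53, limma adjusted p = 0.0320) and the other 10 not. Of these, *AstA* was lower and *Tk*, *AstC* and *CCHa1* were higher in every *gro-RNAi* library than in every control library. In that comparison 26.4% of all genes did not overlap. By staining, the paper reports a lower density of Pros+ cells in *gro-RNAi* guts, which is not a measure of RNA in sorted cells. The 9 enterocyte markers summed to 232 to 861 FPKM in *gro-RNAi*, 156 to 667 FPKM in *Notch-RNAi* and 179 to 424 FPKM in control, and these sums overlapped between all groups. Taken singly, *nub*, *Myo31DF* and *Mal-A1* were higher in every *gro-RNAi* library than in every *Notch-RNAi* library. In that comparison 33.3% of all genes did not overlap. Limma called none of the 9 in any comparison (lowest limma unadjusted p = 0.0484, for *Mal-A1* between the RNAi groups). Muscle markers (5 of 6 listed) summed to at most 4.82 FPKM, the 4 haemocyte markers to at most 0.869 FPKM and *trh*, the 1 tracheal marker measured, to at most 0.212 FPKM in any library, and no marker measured was at 0 in all libraries of a group. The part of these differences in the results below was not tested. In bulk RNA, fewer cells of a type and less RNA per cell cannot be told apart.

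*gro* itself (chromosome 3R, plus strand, 26041736 to 26049911, release 6 of the genome, BDGP6; FBgn0001139, protein coding, 10 annotated transcripts) was lowest in *gro-RNAi* and highest in *Notch-RNAi*. Its level was 3.69, 13.8 and 9.53 FPKM in *gro-RNAi* libraries 1, 2 and 3, 39.7, 47.3 and 33.1 FPKM in *Notch-RNAi* libraries and 19.9, 27.8 and 15.3 FPKM in control libraries. The 3 groups did not overlap, and each *Notch-RNAi* library was above every control library. The means were 9.003 ± 5.07, 40.0 ± 7.12 and 21.0 ± 6.35 FPKM in *gro-RNAi*, *Notch-RNAi* and control (SD, n = 3 libraries each). Some 150 to 2300 reads per library stood behind these values.

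In *gro-RNAi* against control, the depletion that checks the labels, the mean FPKM of *gro* was 0.429 times that of control and the log2 fold change was -1.36 (SE 0.44, 95% interval -2.34 to -0.38). It did not pass the test over all genes (limma adjusted p = 0.0940), and an exact permutation test of 3 libraries against 3 gives p = 0.1, the smallest p it can give. The *gro-RNAi* libraries spread from 3.69 to 13.8 FPKM, wider than the gap between the highest of them and the lowest control library, 15.3 FPKM. *gro-RNAi* library 1 had the lowest *gro* of all, 3.69 FPKM, and the highest *Dl* of all, 69.7 FPKM against 30.8 and 25.6 FPKM in *gro-RNAi* libraries 2 and 3. *Dl* was 38.8, 46.7 and 54.7 FPKM in *Notch-RNAi* and 6.56, 7.09 and 3.93 FPKM in control, a pairing of genes that was chosen after their values were seen. The other *gro-RNAi* libraries did not follow it, since library 2 was above library 3 in both *gro* and *Dl*. Library 1 also stood apart in some other markers, such as *Orcokinin* (1971 FPKM, against 224 and 205 in libraries 2 and 3) and *nub* (12.3 FPKM, against 2.21 and 1.83). With each library left out in turn, the log2 fold change of *gro* in *gro-RNAi* against control ran from -1.76 to -0.82.

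In *Notch-RNAi* against control, the mean FPKM of *gro* was 1.91 times that of control, with a log2 fold change of 0.96 (SE 0.44, 95% interval -0.03 to 1.94, limma adjusted p = 0.130), which did not pass the test. It passed with only the 6 libraries compared (limma adjusted p = 0.0394) and without *gro-RNAi* library 1 (limma adjusted p = 0.0257). Over the 9 other settings the log2 fold change ran from 0.45 to 0.96, with limma adjusted p up to 0.558. With 1 of the 6 compared libraries left out it ran from 0.75 to 1.18 and was never called (limma adjusted p between 0.117 and 0.311). The log2 difference beyond the median of all genes was 0.50. The targeted gene of that group, *N*, which encodes the Notch receptor, had 13.9, 16.2 and 9.78 FPKM in *Notch-RNAi*, all below the 40.9, 36.9 and 28.5 FPKM of control (log2 fold change -1.42, SE 0.22, limma adjusted p = 0.00242). In *gro-RNAi* against control *N* had 32.17, 32.07 and 32.97 FPKM, within the range of control (log2 fold change -0.11, limma adjusted p = 0.790).

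The direct comparison of the RNAi groups gave the one call for *gro*. Its log2 fold change in *gro-RNAi* against *Notch-RNAi* was -2.32 (SE 0.44, 95% interval -3.30 to -1.33, limma adjusted p = 0.0187), and its mean FPKM in *gro-RNAi* was 0.225 times that in *Notch-RNAi*. The call was lost without *Notch-RNAi* library 1 (limma adjusted p = 0.0851) and without *Notch-RNAi* library 2 (limma adjusted p = 0.0850), with log2 fold changes of -2.31 and -2.19. The 3′ end of *gro* shares 181 nt with *Exo84*, a gene of the exocyst on the other strand, and whether the counting used strand is not given in the sources used here. *Exo84* was not called in *gro-RNAi* or *Notch-RNAi* against control (log2 fold changes 0.0056 and 0.19).

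**Figure D1:**
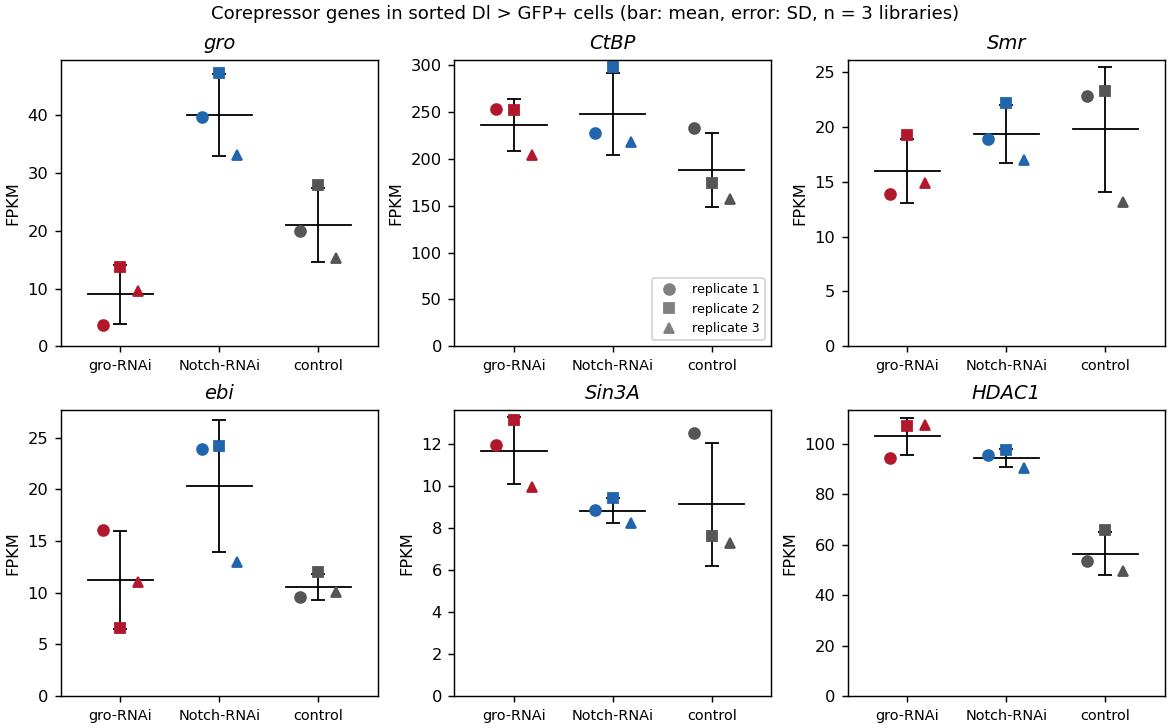
FPKM of the 6 corepressor genes in each library of sorted Dl > GFP+ cells, with *gro-RNAi* on the left, *Notch-RNAi* in the middle and control on the right of each panel (1 point per library, long bar the mean, error bar the SD, n = 3; each panel has its own axis from 0). *gro* separates the 3 groups, with 3.69 to 13.8 FPKM in *gro-RNAi*, 33.1 to 47.3 in *Notch-RNAi* and 15.3 to 27.8 in control, and *HDAC1* is higher in both RNAi groups than in control.

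*CtBP*, the other corepressor that Hairless binds, had the highest FPKM of the members in every group and was not called in any comparison. The gene is on chromosome 3R, plus strand (13011649 to 13026275; FBgn0020496, 10 annotated transcripts). Its level was 252.6, 251.5 and 203.6 FPKM in *gro-RNAi*, 227.8, 297.7 and 217.8 FPKM in *Notch-RNAi* and 232.7, 174 and 157.6 FPKM in control. The groups overlapped through control library 1, the highest of its group. The log2 fold change was 0.34 in *gro-RNAi* against control (SE 0.19, 95% interval -0.10 to 0.78, limma adjusted p = 0.317) and 0.40 in *Notch-RNAi* against control (SE 0.19, 95% interval -0.03 to 0.84, limma adjusted p = 0.148). Both lay close to the median of all genes, and both turned to small negative values, -0.025 and -0.10, when all libraries were shifted to 1 median. *gro-RNAi* and *Notch-RNAi* differed by -0.06 (95% interval -0.50 to 0.37, limma adjusted p = 0.870).

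Because *gro* moved between groups and *CtBP* was not called, the balance of both transcripts in a library, which does not change with the scaling between libraries, was compared. *gro* FPKM amounted to 1.46%, 5.48% and 4.68% of *CtBP* FPKM in *gro-RNAi*, 17.4%, 15.9% and 15.2% in *Notch-RNAi* and 8.54%, 16.0% and 9.69% in control. Every *gro-RNAi* library lay below all others, while control library 2 lay within the range of *Notch-RNAi*. The log2 ratio differed by -1.71 between *gro-RNAi* and control and by -2.27 between *gro-RNAi* and *Notch-RNAi*, each with an exact permutation p of 0.1, the smallest possible, and 0.15 after adjustment over the 3 comparisons made. Between *Notch-RNAi* and control the difference was 0.56 (exact permutation p = 0.3). Leaving out 1 library of a pair moved these differences to between -2.07 and -1.12, between -2.63 and -1.67 and between 0.37 and 0.83.

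**Figure D2:**
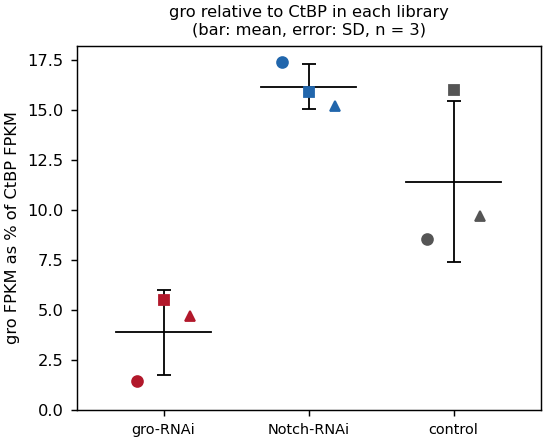
*gro* FPKM as a percentage of *CtBP* FPKM in each library, with *gro-RNAi* on the left, *Notch-RNAi* in the middle and control on the right (1 point per library, long bar the mean, error bar the SD, n = 3). The *gro-RNAi* libraries lie between 1.46% and 5.48%, below all *Notch-RNAi* (15.2% to 17.4%) and control (8.54% to 16.0%) libraries.

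*Smr*, the scaffold related to SMRT and N-CoR, overlapped between all groups and was not called. The gene is on the X chromosome, minus strand (12684203 to 12742618; FBgn0265523) and has long annotated transcripts of 12784 to 15201 nt. Its level was 13.8, 19.3 and 14.9 FPKM in *gro-RNAi*, 18.9, 22.1 and 17.0 FPKM in *Notch-RNAi* and 22.9, 23.3 and 13.2 FPKM in control. The ranges overlapped in every pair of groups, and control had both the highest and the lowest value. The log2 fold change was -0.27 in *gro-RNAi* against control (SE 0.25, 95% interval -0.84 to 0.30, limma adjusted p = 0.542), 0.0053 in *Notch-RNAi* against control (95% interval -0.56 to 0.57, limma adjusted p = 0.993) and -0.28 in *gro-RNAi* against *Notch-RNAi* (limma adjusted p = 0.521). Set against *Smr* within a library, *gro* stood at 26.6% to 71.5% of *Smr* FPKM in *gro-RNAi*, 195% to 214% in *Notch-RNAi* and 87.0% to 120% in control, so that the 3 groups did not overlap. The ratios of *gro* to the members other than *CtBP* were added after the values were seen and are given without a test. *gro* to *Sin3A* did not overlap between the groups either, at 30.9% to 105% in *gro-RNAi*, 402% to 503% in *Notch-RNAi* and 159% to 364% in control. *gro* to *HDAC1* overlapped between *Notch-RNAi*, with 36.5% to 48.5%, and control, with 30.9% to 42.3%, and was 3.91% to 12.9% in *gro-RNAi*. *gro* to *ebi* overlapped in all 3 comparisons, at 22.9% to 209% in *gro-RNAi*, 166% to 255% in *Notch-RNAi* and 151% to 232% in control.

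*ebi*, the TBL1 relative that works in the same complex, had higher values in *Notch-RNAi* than in control but was not called. The gene is on chromosome 2L, plus strand (415067 to 418536; FBgn0263933, 1 annotated transcript of 3327 nt). Its level was 16.07, 6.60 and 10.99 FPKM in *gro-RNAi*, 23.9, 24.2 and 13.0 FPKM in *Notch-RNAi* and 9.62, 12.0 and 10.1 FPKM in control. Each *Notch-RNAi* library was above every control library, and the *gro-RNAi* libraries spread on both sides of control. The log2 fold change in *Notch-RNAi* against control was 0.89 (SE 0.35, 95% interval 0.10 to 1.67, limma adjusted p = 0.0855), or 0.43 beyond the median of all genes. Without *Notch-RNAi* library 3 it was 1.18 and called (limma adjusted p = 0.0403), the 1 call when each of the 6 compared libraries was left out. Over the 9 other settings the log2 fold change ran from 0.38 to 0.89 without a call (limma adjusted p between 0.0595 and 0.432). In *gro-RNAi* against control it was 5e-04 (SE 0.35, 95% interval -0.78 to 0.79, limma adjusted p = 1), and in *gro-RNAi* against *Notch-RNAi* -0.89 (95% interval -1.67 to -0.10, limma adjusted p = 0.149).

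The 3′ end of *ebi* shares 103 nt with *CG13690* on the other strand. *CG13690* had 9.63, 8.95 and 9.44 FPKM in *gro-RNAi*, 11.02, 9.99 and 11.22 FPKM in *Notch-RNAi* and 1.52, 1.95 and 1.92 FPKM in control. It was called higher in *gro-RNAi* (log2 fold change 2.32, limma adjusted p = 0.00102) and in *Notch-RNAi* (2.52, limma adjusted p = 1.17e-04) against control. The part of reads from the shared stretch in the level of *ebi* was not tested.

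*Sin3A*, the scaffold of the Sin3 complex, had the lowest mean FPKM of the members in *Notch-RNAi* and control. The gene is on chromosome 2R, minus strand (12575240 to 12592917; FBgn0022764, 10 annotated transcripts). Its level was 12.0, 13.1 and 9.96 FPKM in *gro-RNAi*, 8.87, 9.41 and 8.22 FPKM in *Notch-RNAi* and 12.5, 7.64 and 7.27 FPKM in control. The *gro-RNAi* libraries were all above the *Notch-RNAi* libraries, but control library 1 reached as high as *gro-RNAi*. The log2 fold change was 0.39 in *gro-RNAi* against control (SE 0.24, 95% interval -0.15 to 0.92, limma adjusted p = 0.355), -0.0061 in *Notch-RNAi* against control (95% interval -0.54 to 0.53, limma adjusted p = 0.991) and 0.39 in *gro-RNAi* against *Notch-RNAi* (95% interval -0.14 to 0.93, limma adjusted p = 0.329).

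*HDAC1*, the histone deacetylase of the Sin3 and NuRD complexes and a partner of Groucho, was called higher in both RNAi groups than in control. The gene is on chromosome 3L, plus strand (4626734 to 4629467; FBgn0015805, 1 annotated transcript of 2124 nt). Its level was 94.4, 107.1 and 107.4 FPKM in *gro-RNAi*, 95.4, 97.5 and 90.6 FPKM in *Notch-RNAi* and 53.6, 65.9 and 49.5 FPKM in control. All 6 RNAi libraries were above all 3 control libraries, with means of 103 ± 7.44, 94.5 ± 3.58 and 56.3 ± 8.52 FPKM in *gro-RNAi*, *Notch-RNAi* and control (SD, n = 3 libraries each).

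The mean of *HDAC1* in *gro-RNAi* was 1.83 times that of control (log2 fold change 0.88, SE 0.15, 95% interval 0.55 to 1.21, limma adjusted p = 0.0107). In *Notch-RNAi* it was 1.68 times that of control (log2 fold change 0.76, SE 0.15, 95% interval 0.42 to 1.09, limma adjusted p = 0.00665). The RNAi groups differed from each other by 0.12 (95% interval -0.21 to 0.45, limma adjusted p = 0.640). Both comparisons use the same control libraries. Beyond the median of all genes, the differences from control were 0.61 and 0.30. Both calls held with each library left out in turn, but both were lost with all libraries shifted to 1 median (log2 fold changes 0.51 and 0.25, limma adjusted p = 0.185 and 0.405) or quantile normalised (0.65 and 0.37, limma adjusted p = 0.0848 and 0.175). That in *gro-RNAi* was also lost with only the 6 libraries compared (limma adjusted p = 0.0549).

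**Figure D3:**
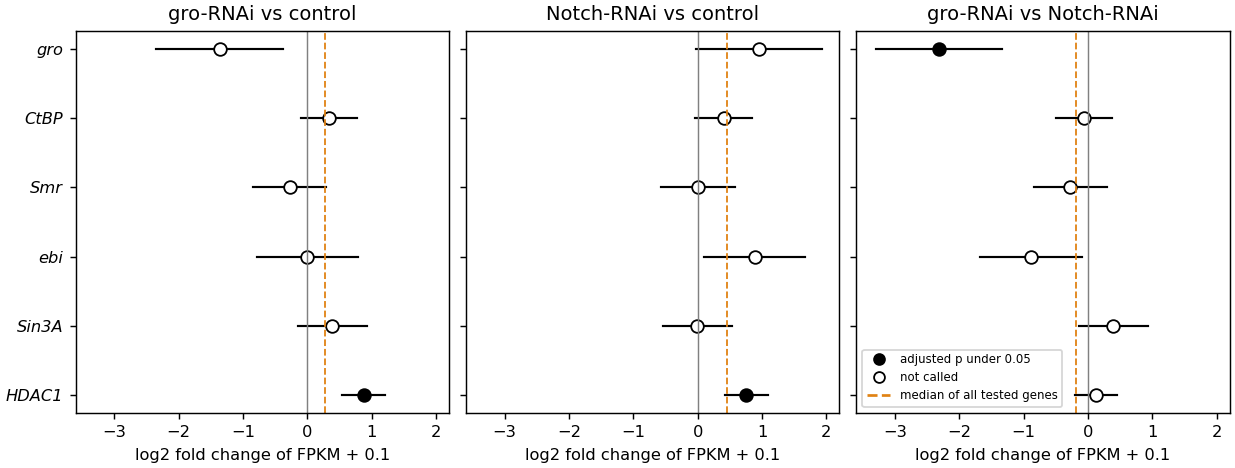
Log2 fold change of FPKM + 0.1 of each corepressor gene with its 95% interval from limma, for both RNAi groups against control and, on the right, between them with *gro-RNAi* over *Notch-RNAi* (filled points have an adjusted p under 0.05; dashed line, the median of all 11493 tested genes). The filled points are *HDAC1* in both comparisons with control, 0.88 and 0.76, and *gro* at -2.32 between the RNAi groups.

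Of the 6 members, 1 was called in *gro-RNAi* against control, where 7.49% of all tested genes were called, 6.26% higher and 1.23% lower. In *Notch-RNAi* against control 1 was called, where 28.7% of all genes were, 24.4% higher and 4.29% lower. In *gro-RNAi* against *Notch-RNAi* 1 was called, where 7.46% of all genes were, 2.6% higher and 4.86% lower. The members whose libraries did not overlap were *gro* and *HDAC1* in the first comparison (26.4% of all genes, 21.5% higher and 4.9% lower), *gro*, *ebi* and *HDAC1* in the second (47% of all genes, 39% higher and 8% lower) and *gro* and *Sin3A* in the third (33.3% of all genes, 10.9% higher and 22.3% lower). The median log2 fold change of the 6 members was 0.17, 0.58 and -0.17 in the 3 comparisons, against 0.27, 0.46 and -0.18 over all tested genes. With all libraries shifted to 1 median, limma called no member in either comparison with control (3 and 1 members at an unadjusted p under 0.05), and the calls over all genes were 212 higher and 309 lower in *gro-RNAi* and 958 higher and 1294 lower in *Notch-RNAi*, against 720 and 141 and 2806 and 493 without the shift.

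The order of the members by level changed around *gro*. In *gro-RNAi* it ran *CtBP*, *HDAC1*, *Smr*, *Sin3A*, *ebi* and *gro*, with the libraries of *Sin3A*, *ebi* and *gro* overlapping. In *Notch-RNAi* it ran *CtBP*, *HDAC1*, *gro*, *ebi*, *Smr* and *Sin3A*, where *ebi* and *Smr* overlapped. In control *gro* and *Smr* overlapped behind *CtBP* and *HDAC1*, followed by *ebi* and *Sin3A*, which overlapped too. Among the 11493 tested genes, ranked by mean FPKM, *gro* stood at place 5124 in *gro-RNAi*, 2385 in *Notch-RNAi* and 3000 in control. *CtBP* kept to places 518, 534 and 568, and *HDAC1* stood at 1090, 1252 and 1535.

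Across the 9 libraries, on the log2 scale, *gro* correlated with *Smr* (Pearson r = 0.652) and least with *Sin3A* (r = -0.474), and *CtBP* with *Sin3A* (r = 0.658) and *HDAC1* (r = 0.617). These correlations are a description over 9 libraries that share their groups and scaling. The genes whose levels were most like those of *gro*, among 8358 genes that averaged 1 FPKM or more, were *CG31436* (r = 0.972), *obst-H* (r = 0.948) and *mamo* (r = 0.938). *CG31436* had means of 8.99, 38.8 and 21.7 FPKM in *gro-RNAi*, *Notch-RNAi* and control, and *mamo*, which encodes a zinc finger protein with a BTB domain, 32.0, 65.6 and 49.5 FPKM. For *CtBP* they were *ttv* (r = 0.980), which encodes a heparan sulphate polymerase, *CG17068* (r = 0.969) and *Shark* (r = 0.967), a tyrosine kinase gene.

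Next, 7 lists of genes whose products bind, recruit or modify these corepressors were examined. Of 64 listed genes, 62 were matched and 54 tested. In *gro-RNAi* against control 6 were called higher and none lower by limma (16 and 0 at an unadjusted p under 0.05), 11.1% of the 54 against 7.49% of all genes, with a median log2 fold change of 0.34. In *Notch-RNAi* against control 16 were called higher and 3 lower, 35.2% against 28.7% of all genes, with a median of 0.46. In *gro-RNAi* against *Notch-RNAi* 1 was called higher and 2 lower, 5.56% against 7.46% of all genes. With all libraries shifted to 1 median, the calls among the 54 were 3 higher and 0 lower in *gro-RNAi* (9 and 6 at an unadjusted p under 0.05 by limma) and 7 higher and 8 lower in *Notch-RNAi* against control, so that the excess of higher calls in *Notch-RNAi* was not kept. With each library left out in turn, 1 of the 6 calls in *gro-RNAi* (*Caf1-55*) 11 of the 19 in *Notch-RNAi* against control and 0 of the 3 between the RNAi groups held every time, and the other calls were each lost without at least 1 library.

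Among the 6 adaptors of Hairless and Su(H), *mam*, whose product Mastermind is a coactivator of the Notch complex, was called higher in both RNAi groups. It had 6.13, 6.10 and 4.46 FPKM in *gro-RNAi*, 5.09, 6.10 and 5.33 FPKM in *Notch-RNAi* and 2.86, 1.96 and 1.49 FPKM in control. Every RNAi library was above every control library, with log2 fold changes of 1.39 in each comparison (limma adjusted p = 0.0204 in *gro-RNAi* and 0.00732 in *Notch-RNAi*). The call in *gro-RNAi* was lost without control library 2 or 3 or *gro-RNAi* library 2 (limma adjusted p between 0.0556 and 0.0739), and also with all libraries shifted to 1 median (0.0502), quantile normalised (0.0544) or with only the 6 libraries compared (0.0923).

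*Bx42*, the fly SKIP gene, was called higher in *Notch-RNAi* (log2 fold change 1.08, limma adjusted p = 0.00749), but not with all libraries shifted to 1 median (0.57, limma adjusted p = 0.133) or quantile normalised (0.63, limma adjusted p = 0.105). *Su(H)* had log2 fold changes of 0.14 in *gro-RNAi* and 0.015 in *Notch-RNAi* against control (limma adjusted p = 0.781 and 0.973), and *H*, which encodes Hairless, 0.60 and 0.34 (limma adjusted p = 0.191 and 0.354). *H* had 9.85, 11.2 and 7.58 FPKM in *gro-RNAi*, 6.70, 8.50 and 8.47 FPKM in *Notch-RNAi* and 8.63, 5.05 and 5.45 FPKM in control. The groups overlapped for *H*, and the adaptor that bridges Su(H) to Groucho and CtBP was thus not called in either group.

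Of 8 tested subunits of the Sin3 complex other than Sin3A and HDAC1, 2 were called higher in *gro-RNAi* and 4 in *Notch-RNAi*, and none lower in either (0 lower at an unadjusted p under 0.05 by limma), where 6.26% and 24.4% of all genes were called higher. With all libraries shifted to 1 median, 1 was called higher in each and none lower (0 and 2 lower at an unadjusted p under 0.05 by limma). *Caf1-55*, a histone chaperone shared with NuRD and other complexes, had 72.9, 69.3 and 58.3 FPKM in *gro-RNAi*, 61.3, 61.2 and 54.6 FPKM in *Notch-RNAi* and 33.7, 31.0 and 33.3 FPKM in control. All RNAi libraries were above all control libraries, with log2 fold changes of 1.03 in *gro-RNAi* (limma adjusted p = 0.00484) and 0.85 in *Notch-RNAi* (limma adjusted p = 0.00345). The *gro-RNAi* call held in every alternative run, and that in *Notch-RNAi* in all but the centring on the median (limma adjusted p = 0.0824). *Sap30*, a subunit of the core complex, had log2 fold changes of 0.68 in *gro-RNAi* (limma adjusted p = 0.0496) and 0.90 in *Notch-RNAi* (limma adjusted p = 0.00695). The *gro-RNAi* call of *Sap30* held only without control library 2 among the 9 leave-outs, with a highest limma adjusted p of 0.144. The call of *Sap30* in *Notch-RNAi* was lost with the shift to 1 median (0.40, limma adjusted p = 0.199) and quantile normalization (0.46, limma adjusted p = 0.126).

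*Brms1* (0.92, limma adjusted p = 0.00326) and *MRG15*, which encodes a chromodomain protein (1.09, limma adjusted p = 0.01001), were called in *Notch-RNAi* against control. *Brms1* lost its call with the shift to 1 median (0.41, limma adjusted p = 0.120) and quantile normalization (0.47, limma adjusted p = 0.0790), while *MRG15* kept it with the shift (0.59, limma adjusted p = 0.0444). *MRG15* had a similar log2 fold change in *gro-RNAi*, 0.90, without passing the test (limma adjusted p = 0.0515). In *gro-RNAi* against *Notch-RNAi*, where 7.46% of all genes were called, limma called none of the 8 subunits, and 1, *Brms1*, was lower at an unadjusted p under 0.05.

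Limma called none of the 7 CoREST, LSD1 and NuRD subunits in *gro-RNAi* against control (1 at an unadjusted p under 0.05), where 7.49% of all genes were called. In *Notch-RNAi* against control, where 28.7% of all genes were called, *simj* (1.00, limma adjusted p = 0.0162) and *MTA1-like* (0.56, limma adjusted p = 0.0401), both genes of NuRD, were called higher. *simj* lost its call without *Notch-RNAi* library 1 or 2 (limma adjusted p up to 0.0688), and *MTA1-like* in 8 of 9 leave-outs, all but *gro-RNAi* library 1 (limma adjusted p up to 0.125). Both calls were also lost with the shift to 1 median (limma adjusted p = 0.243 and 0.875). Among 8 other deacetylase genes, *Sirt6* was called higher in both RNAi groups. It had 2.15, 2.17 and 1.56 FPKM in *gro-RNAi*, 2.997, 4.28 and 2.26 FPKM in *Notch-RNAi* and 0.652, 0.413 and 0.992 FPKM in control. No RNAi library overlapped with control, and the log2 fold changes were 1.44 (limma adjusted p = 0.0461) and 2.08 (limma adjusted p = 0.00437). The call in *gro-RNAi* was lost whichever library was left out (limma adjusted p between 0.0548 and 0.131).

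*HDAC11* was the deacetylase gene called lower. It had 15.1, 20.4 and 16.7 FPKM in *gro-RNAi*, 4.44, 7.08 and 8.35 FPKM in *Notch-RNAi* and 24.2, 19.5 and 12.7 FPKM in control. *Notch-RNAi* lay below the other groups, with a log2 fold change of -1.49 against control (limma adjusted p = 0.00787). In *gro-RNAi* against control it was -0.07 (limma adjusted p = 0.912). The difference between the RNAi groups, 1.42, was called (limma adjusted p = 0.0282), but not without *gro-RNAi* library 2 or 3 or *Notch-RNAi* library 1 or 2 (limma adjusted p between 0.0729 and 0.115).

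Of 16 listed repressors that recruit Groucho, 9 passed the filter. *hry* (*hairy*), whose product is a bHLH repressor that recruits Groucho, was called higher in both RNAi groups. It had 153, 95.8 and 66.4 FPKM in *gro-RNAi*, 122, 151 and 50.8 FPKM in *Notch-RNAi* and 30.9, 17.5 and 13.8 FPKM in control. All RNAi libraries lay above all control libraries, and the log2 fold changes were 2.34 (limma adjusted p = 0.0217) and 2.32 (limma adjusted p = 0.00774). The call in *gro-RNAi* was lost without control library 2 or 3 or *gro-RNAi* library 1 or 2 (limma adjusted p between 0.0514 and 0.0771).

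In *Notch-RNAi* against control *lz*, a Runx factor gene, was called higher as well, with 3.33, 3.86 and 3.22 FPKM in *Notch-RNAi* against 0.320, 0.0775 and 0.0282 FPKM in control (log2 fold change 4.07, limma adjusted p = 8.98e-04, a size that depends on the added 0.1 FPKM). *dpn* (*deadpan*), a bHLH repressor gene, was called lower, with 0.612, 0.398 and 2.65 FPKM in *Notch-RNAi* against 11.7, 2.95 and 6.12 FPKM in control (log2 fold change -2.62, limma adjusted p = 0.0254), and so was *odd*, a zinc finger repressor gene (-0.99, limma adjusted p = 0.0178). The *dpn* call was lost without control library 1 or 3 or *Notch-RNAi* library 1 or 2 (limma adjusted p between 0.0654 and 0.0924), and the *odd* call without control library 3 or *Notch-RNAi* library 1 (limma adjusted p = 0.0540 and 0.0735). *lz* was lower in *gro-RNAi* than in *Notch-RNAi* (-2.36, limma adjusted p = 0.0249), a call lost without *gro-RNAi* library 2 or any *Notch-RNAi* library (limma adjusted p between 0.0501 and 0.109).

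Of 10 listed repressors that recruit CtBP, 8 were tested. In *Notch-RNAi* against control limma called 3 higher and 0 lower, where 24.4% and 4.29% of all genes were. *gt* had 0.0677, 0 and 0 FPKM in *Notch-RNAi* against 0.537, 0.476 and 0.780 FPKM in control. It just missed the threshold (log2 fold change -2.53, limma adjusted p = 0.05002). With all libraries shifted to 1 median, 2 were called higher and 2, *gt* and *ttk*, lower. *sna* (*snail*), a zinc finger repressor gene, was called higher in both RNAi groups. It had 35.9, 9.69 and 6.12 FPKM in *gro-RNAi*, 9.30, 10.4 and 10.1 FPKM in *Notch-RNAi* and 1.62, 1.59 and 3.02 FPKM in control. *gro-RNAi* library 1 was far above all others, and no RNAi library overlapped with control. The log2 fold changes were 2.64 (limma adjusted p = 0.0265) and 2.27 (limma adjusted p = 0.0174). The first was lost without any 1 control library or *gro-RNAi* library 2 (limma adjusted p between 0.0517 and 0.0762), and the second without control library 2 or *Notch-RNAi* library 1 or 2 (limma adjusted p between 0.0523 and 0.0581).

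*Kr* (*Krüppel*) had 1.87, 2.18 and 1.11 FPKM in *Notch-RNAi* against 0.109, 0.0963 and 0.0389 FPKM in control and was called (3.30, limma adjusted p = 9.95e-04). The size of this change depends on the added FPKM, being 1.31 with 1 FPKM and 4.29 with 0.01 FPKM. It was lower in *gro-RNAi*, with 0.490, 0.264 and 0.283 FPKM, than in *Notch-RNAi* (-2.02, limma adjusted p = 0.0231), a call lost without *gro-RNAi* library 2 or 3 or *Notch-RNAi* library 1 or 2 (limma adjusted p between 0.0691 and 0.115). *peb*, which encodes the zinc finger protein Hindsight, was called higher in *Notch-RNAi* (1.15, limma adjusted p = 0.0295), but not without control library 2 or 3 or *Notch-RNAi* library 1 or 2 (limma adjusted p between 0.0698 and 0.109) and not with the shift to 1 median (0.65, limma adjusted p = 0.136).

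Of 8 genes for enzymes and partners that modify Groucho, limma called none in *gro-RNAi* against control (2 at an unadjusted p under 0.05), where 7.49% of all genes were called. In *Notch-RNAi* against control, where 28.7% of all genes were called, 2 were called higher. These were *lwr*, which encodes the SUMO-conjugating enzyme (0.50, limma adjusted p = 0.0417), and *mts*, the catalytic subunit gene of PP2A (0.48, limma adjusted p = 0.0301). These differences were as large as the median of all genes, 0.46, and turned to -0.0053 and -0.020 when the libraries were centred on it. *lwr* lost its call in 6 and *mts* in 5 of 9 leave-outs. These were control libraries 1 and 3 and *Notch-RNAi* libraries 1 and 2 for both, *gro-RNAi* libraries 2 and 3 for *lwr* and *Notch-RNAi* library 3 for *mts*, with limma adjusted p up to 0.161 and 0.114.

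**Figure D4:**
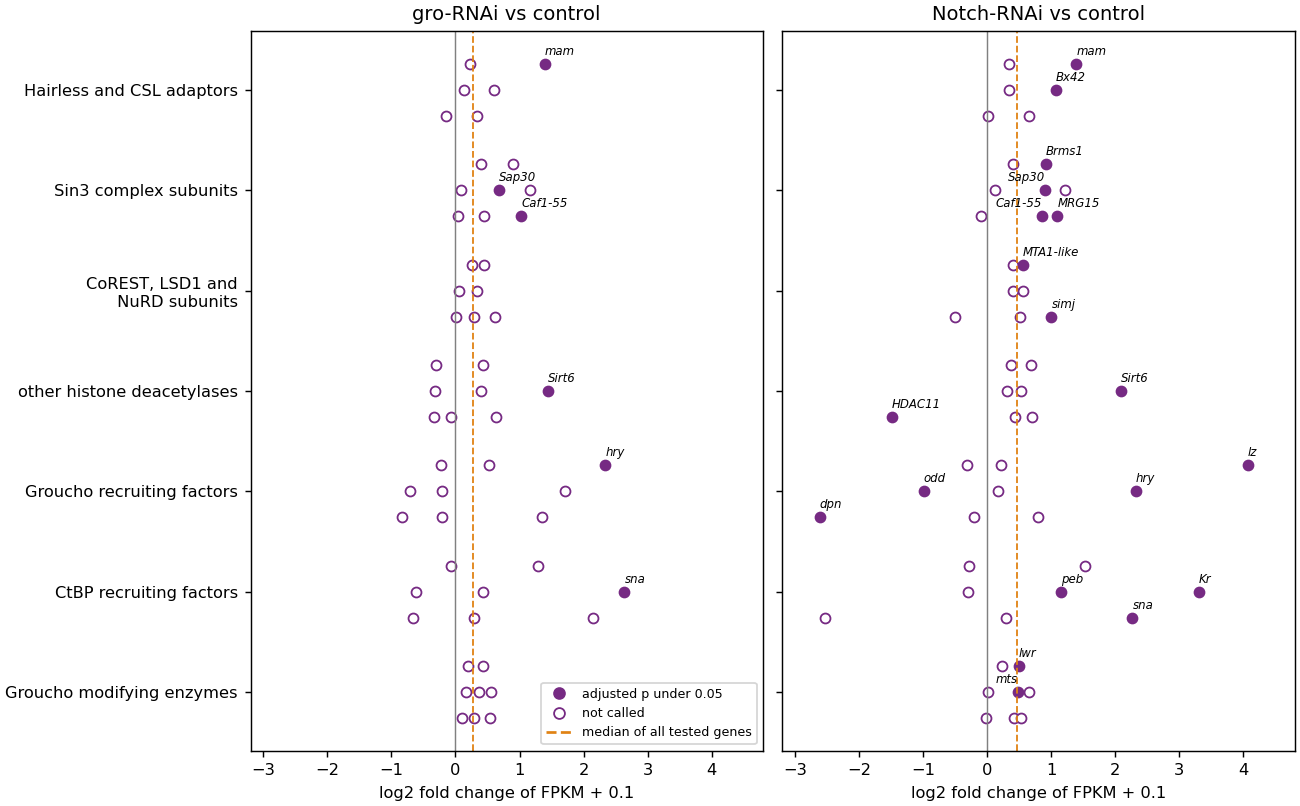
Log2 fold change of FPKM + 0.1 of the 54 tested genes of the 7 partner lists, in *gro-RNAi* against control and *Notch-RNAi* against control (1 point per gene, spread vertically within its list only to be seen apart; filled and named points have a limma adjusted p under 0.05; dashed line, the median of all tested genes). There are 6 filled points in *gro-RNAi*, all to the right of 0, and 19 in *Notch-RNAi*, of which *dpn*, *HDAC11* and *odd* lie to the left.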

How the data were processed

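Per the labels, 9 libraries were made from sorted Dl > GFP+ cells. The RNA was amplified and sequenced on an Illumina GA II. The authors deposited FPKM for 17481 genes, and their processing notes name STAR 2.5.2b and BDGP6. The counting tool, the annotation and any scaling between libraries are not given in the sources used here. Symbols (for 17176 genes) and positions came from Ensembl annotation of release 6 of the genome (BDGP6), which need not be the authors'.

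Genes averaging 0.1 FPKM or more were compared on log2(FPKM + 0.1) with limma 3.58.1 in R 4.3.3 (lmFit, eBayes with trend), without a replicate block, after the comparison had been tested on simulated data. Depth was estimated from the steps between values under 0.3 FPKM of genes with 1 transcript of at least 2500 nt. Read numbers cover counting error only. Ratios had two-sided exact permutation tests. Members and lists were chosen with earlier results of these data known. All members were named, with every called gene of the partner lists (at most 6 per list), *Su(H)* and *H*, the 3 genes most like *gro* and *CtBP*, and overlapping genes. *gt* and *ttk* were added after their values were seen. Alternatives were pseudocounts of 1 and 0.01, a filter at 1 FPKM or none, centring on the median, the 6 compared libraries alone, quantile normalization, a single prior variance, a replicate block and leaving out each library. Python 3.11.15, pandas 2.3.3, numpy 2.4.6 and matplotlib 3.10.9 were used.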

Additional observations from a re-analysis of the deposited data

How the results depend on the processing

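Over all alternatives, 295 of 324 refits of the members kept their direction and side of the threshold, 7 lost a call, 3 gained one and 19 changed sign, all 19 of log2 fold changes that were not called. Of 664 refits of the listed genes, 534 kept both, 119 lost the call and 11 changed sign. Apart from *Su(H)*, *H* and *N*, these refits cover only genes already called in a comparison, so calls gained by other listed genes were not counted. Among the 54 tested partner genes, lower calls in *Notch-RNAi* against control rose from 3 to 8 with the shift to 1 median. Centring the libraries on the same median changed most, by construction, since the medians of the groups differ. It left 0 members called in each comparison with control (3 and 1 at an unadjusted p under 0.05 by limma), and over all genes 212 higher and 309 lower in *gro-RNAi* (720 and 141 without it) and 958 higher and 1294 lower in *Notch-RNAi* (2806 and 493 without it). Quantile normalization left 0 members in both (2 and 1 at an unadjusted p under 0.05 by limma), 233 and 217 genes in *gro-RNAi*, 1067 and 1161 in *Notch-RNAi*, and 512 higher in *gro-RNAi* against *Notch-RNAi* (299 without it). With only the 6 libraries compared, 0 members were called in *gro-RNAi* (2 at an unadjusted p under 0.05 by limma) and 2 in *Notch-RNAi*, with 160 genes higher and 34 lower in *gro-RNAi*. The cause of these last changes was not tested.

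Signs turned under centring for *CtBP* (-0.025 in *gro-RNAi*, -0.10 in *Notch-RNAi* and 0.075 between them, 0.073 under quantile normalization), *ebi* in *gro-RNAi* (-0.36, quantile -0.32, pseudocount of 0.01 -3e-04), *Smr* in *Notch-RNAi* (-0.50, quantile -0.42), *Su(H)* (-0.23 in *gro-RNAi* and -0.49 in *Notch-RNAi*, quantile -0.23 and -0.54), *H* in *Notch-RNAi* (-0.17, quantile -0.16), *lwr* (-0.0053) and *mts* (-0.020).

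With each library left out, *gro* in *gro-RNAi* ran from -1.76 to -0.82. The members called ran from 1 to 1 in *gro-RNAi*, from 1 to 2 in *Notch-RNAi* and from 0 to 1 between them. Over all genes, 267 to 759 were higher and 54 to 146 lower in *gro-RNAi*, 1328 to 3162 and 234 to 577 in *Notch-RNAi*, and 78 to 335 and 62 to 887 between them. The lowest counts came without *gro-RNAi* library 2 (267) or control library 3 (54) in *gro-RNAi* and without *Notch-RNAi* library 1 (1328, 234, 78 and 62) in the others, and those of *gro-RNAi* against control also moved by over 1.5 times without control library 2, *gro-RNAi* library 3 or *Notch-RNAi* library 1 or 2. So did those of *Notch-RNAi* against control without *Notch-RNAi* library 2, and those between the RNAi groups without that library or any *gro-RNAi* library. Signs turned within -0.30 to 0.33 for *ebi* in *gro-RNAi*, -0.15 to 0.24 for *Sin3A*, -0.26 to 0.14 for *Smr* and -0.11 to 0.13 for *Su(H)* in *Notch-RNAi*, -0.018 to 0.34 for *Su(H)* in *gro-RNAi*, and -0.15 to 0.076 for *CtBP* between the RNAi groups. A group left with 2 libraries shared the spread of the others.

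The labels do not say whether same-numbered libraries are paired. Deviations from the group means of same-numbered libraries correlated between -0.046 and 0.072, and a shared batch was not tested further. A replicate block gave 443 genes higher in *gro-RNAi* against control and 335 lower in *gro-RNAi* against *Notch-RNAi* (720 and 558 without it) and changed no call of a member. Among listed genes it lost the calls of *Sap30* and *Sirt6* in *gro-RNAi* and of *MTA1-like*, *lwr* and *mts* in *Notch-RNAi*. Those of *HDAC11* and *lz* between the RNAi groups were lost as well (limma adjusted p between 0.054 and 0.0911 for all of these). With only the 6 libraries compared, the calls of *hry* (limma adjusted p = 0.0652), *sna* (0.123), *Sap30* (0.121) and *Sirt6* (0.114) in *gro-RNAi* and of *dpn* (0.0520), *peb* (0.0568) and *lwr* (0.0604) in *Notch-RNAi* were lost too. *Kr* did not pass the filter at 1 FPKM. Depth limits *lz* and *Kr* in control.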
